A study of Mus musculus with 9 samples.

Results

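The genes described here are 31 textbook transcriptional targets of the tumour suppressor p53, a named list matched by Ensembl ID to mouse symbols and read out of 55401 gene IDs. Cdkn1a, the p21 gene, was not among them. p53 is a transcription factor that is held at a low level by the ubiquitin ligase Mdm2 and is released when DNA damage or other stress blocks that ligase. It then binds DNA at response elements and raises genes for cell cycle arrest, DNA repair, cell death and its own feedback inhibition. Sustained p53 activity is one of the known routes to cellular senescence, the subject named in the series title. In macrophages p53 is also known to restrain parts of the inflammatory and alternative activation programmes.

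Poly(A) RNA was sequenced from primary peritoneal macrophages that were drawn into the mouse peritoneal cavity with thioglycollate, an irritant, and collected after brief adherence. The 9 libraries represent 3 genotypes, each with n = 3: Stat6S807E/S807E (SE, libraries SE1 to SE3), Stat6S807A/S807A (SA) and wild type (WT). In SE mice the serine named in the allele is glutamate, which carries a negative charge like a phosphate, and in SA mice it is alanine, which cannot be phosphorylated. Both mutants are homozygous. All groups shared the elicitation, the adherence step and a medium with 10% serum, and the labels name no damaging agent. They also give no strain, age or sex, and do not state whether each library came from its own animal. The p-values are therefore a measure of the variation among these libraries, which may be technical.

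The libraries held between 17286617 and 24618608 counts, so that 3 counts equal 0.122 to 0.174 CPM before TMM scaling. All other CPM are relative to each library's TMM-scaled total over the genes kept by the filter. The 8 macrophage core markers summed to 18206 to 20948 CPM in SE, 18397 to 19129 in SA and 18229 to 23355 in WT, a sum carried mainly by Lyz2 and Csf1r. Of the 8, 3 passed in SE vs WT (defined below), all lower (37.5%, against 5.04% of all genes). These were Cd14 with a fold of 0.709 (edgeR adjusted p = 0.000219), Fcgr1 with 0.812 (0.0157) and Mertk with 0.789 (0.0195). In SA vs WT 1 passed (12.5%, against 4.07%), Cd14, which was higher (log2 fold change 0.32, edgeR adjusted p = 0.00601). In SE vs SA 2 passed (25%, against 10.2%), both lower. They were Cd14 with a fold of 0.566 (edgeR adjusted p = 5.71e-07) and Fcgr1 with 0.687 (6.44e-05). The 8 neutrophil markers summed to 1.67 to 1.86 CPM in SE, 0.815 to 1.03 in SA and 1.07 to 1.76 in WT, with Ly6g at 0 and S100a8 at 4 to 23 counts per library. The 8 T and NK cell markers summed to 3.82 to 4.17 CPM in SE, 4.93 to 5.47 in SA and 4.79 to 6.05 in WT, nearly all of it Cd4, with Cd3e at 0. The 5 eosinophil markers summed to 21.1 to 28 CPM in SE, 22 to 26.8 in SA and 25.2 to 28.5 in WT, mostly Siglecf and Ccr3. Of these, Ccr3 passed as lower in SE vs SA with a fold of 0.576 (edgeR adjusted p = 0.00596). WT2 and SE3 stood at one end of the third principal component and WT1 and SE2 at the other, so each result was also computed without either pair. In bulk RNA, fewer cells of a type and less RNA per cell cannot be told apart.

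Of the 31 genes, 28 passed the filter on low counts and entered the fit of 13501 genes. Perp, a membrane protein of p53-driven cell death, had 0 or 1 count per library. Eda2r, a receptor for ectodysplasin, had 0 to 3 counts, and Trp53i11 was listed at 0 in all 9 libraries. Whether the annotation used for counting held the exons of Trp53i11 is not known, so its 0 cannot be read as a level. These 3 genes were not tested. The members were spread over 15 chromosomes, with 5 of them on chromosome 7.

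The sequences near the gene starts were examined for the motif that p53 binds. RefSeq promoter windows (GRCm38.p6, 250 bases before to 50 after each start) were found for 23 of the 31 genes. They were searched for the 20-base p53 response element, a pair of directly joined 10-base units that each keep a central C and G. Up to 3 mismatches on either strand were allowed, and units with bases between them were not searched for. It was found in 6 of the 23 genes (Aen, Bbc3, Ccng1, Rps27l, Sesn1 and Tigar), or 26.1%, and in 1.63% of all 27025 genes with a window. The 4 elements that lie outside annotated exons are printed 5′ to 3′ on the gene's strand, with 20 bases on each side and the element in capitals.
Ccng1: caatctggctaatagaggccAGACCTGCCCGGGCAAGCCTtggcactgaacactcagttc
Rps27l: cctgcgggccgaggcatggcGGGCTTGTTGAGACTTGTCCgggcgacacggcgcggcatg
Bbc3: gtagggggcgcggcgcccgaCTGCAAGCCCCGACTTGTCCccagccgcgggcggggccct
Sesn1: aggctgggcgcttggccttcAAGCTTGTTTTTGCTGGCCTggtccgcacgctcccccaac
The Ccng1 stretch is chr11:40755442-40755501 on the minus strand, and its element begins 195 bases before the RefSeq start. The Rps27l stretch is chr9:66946276-66946335, the Bbc3 stretch chr7:16309466-16309525 and the Sesn1 stretch chr10:41887246-41887305, all on the plus strand. These 3 fall within the GENCODE span of their genes but outside annotated exons, and the Sesn1 element sits before the second annotated start. The Ccng1 and Rps27l elements have 1 mismatch each, and those of Bbc3 and Sesn1 have 3. Of these genes Sesn1 alone passed the test in any comparison (below), and it was lower in SE. The palindrome TTCNNNNGAA, the form of site that STAT6 prefers, was in 0 of the 23 genes and in 8.01% of all genes. A match is a description of the letters and not a site of binding, and the absence of one says only that the letters are not in these windows.

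Per exon length, Bax and Rps27l were the most abundant of the 28 tested genes, at nearly the same level. Bax, which opens the outer mitochondrial membrane in apoptosis, averaged 74.1 CPM per kilobase over the 9 libraries and Rps27l, a ribosomal protein paralog, 74.0. Each was above 95.6% of all tested genes. Of their 50-base windows 8.5% and 11.2% occur in other genes, so their order is uncertain. Bax also shares 12.2% of its exon bases with Gm45808 on the same strand. Plk2 followed at 45.8 CPM per kilobase, then Sesn1 at 37.4, Sertad1 at 33.5, Ccng1 at 26.4, Abhd4 at 26.3 and Mdm2 at 20.7. The scarcest were Rrm2b, the p53-inducible subunit of ribonucleotide reductase, at 1.13 CPM per kilobase, and Tnfrsf10b, the TRAIL receptor, at 0.277. The range of levels between members was much wider than that between genotypes for any 1 member. The median coefficient of variation within genotypes was 7.27% for the members and 8.2% for all tested genes.

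**Figure D1:**
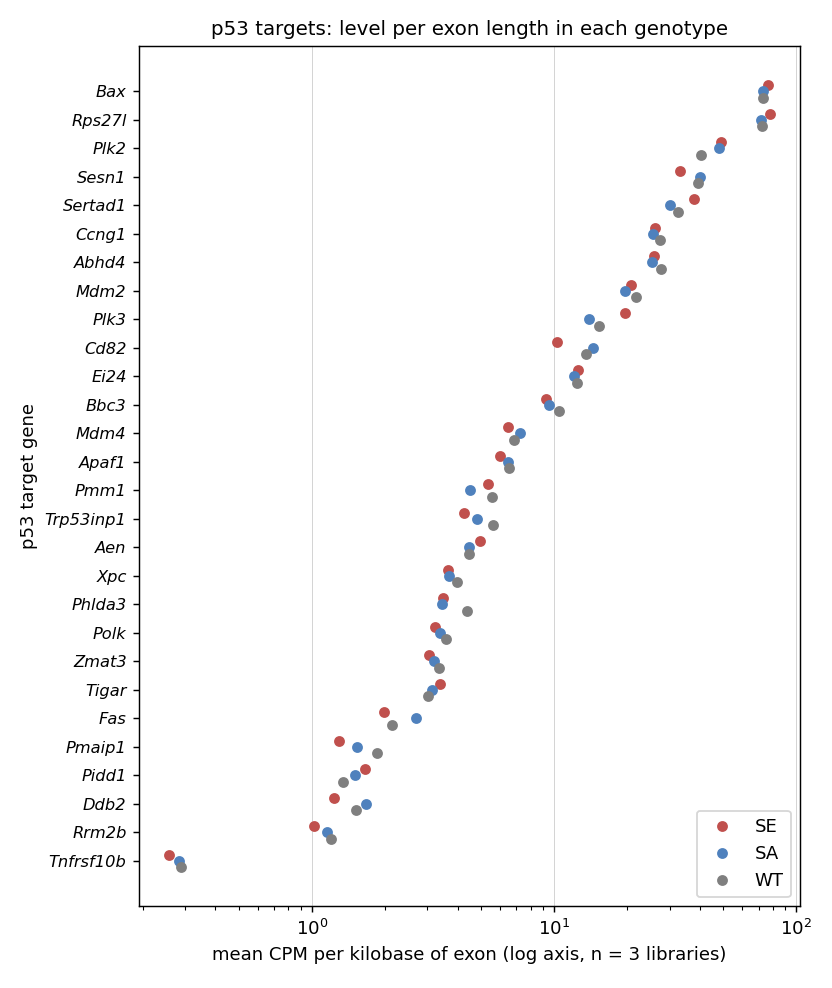
Mean level of each of the 28 tested p53 target genes in SE, SA and WT, as CPM per kilobase of exon on a log axis (n = 3 libraries each). Bax and Rps27l stand at the top and Tnfrsf10b at the bottom, and the 3 genotypes lie close together for most genes.

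Most of the list did not pass the test in any comparison. Against WT, the SE macrophages had 4 of 28 tested targets past it (14.3%), the kinase genes Plk2 and Plk3 higher and Sesn1 and Cd82 lower, while 5.04% of all 13501 genes passed. In SA against WT 1 of 28 passed, Plk2, which was higher (3.57%, against 4.07% of all genes). Between the mutants 4 of 28 passed: Plk3 and Sertad1 were higher and Sesn1 and Cd82 lower in SE than in SA, while 10.2% of all genes passed. Both mutants were compared with the same WT libraries, so those comparisons are not independent.

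A gene passed when its adjusted p in edgeR's quasi-likelihood test, by Benjamini-Hochberg over all tested genes, was under 0.05. By direction, 2.35% of all genes passed as higher and 2.69% as lower in SE vs WT, 1.97% and 2.1% in SA vs WT, and 4.77% and 5.42% in SE vs SA. The median log2 fold change of the 28 genes was -0.10 in SE vs WT, -0.05 in SA vs WT and -0.0034 in SE vs SA, beside -0.003, 0.001 and -0.003 for all tested genes. Positive log2 fold changes were found for 9, 10 and 14 of the 28, against 49.2%, 50.4% and 49.4% of all genes. The libraries of the groups did not overlap for 8 members in SE vs WT, 3 higher and 5 lower, where 20.5% of all genes were apart, 10.1% higher and 10.4% lower. In SA vs WT they did not overlap for 2 higher and 3 lower members, against 9.6% and 9.71% of all genes (19.3% together). In SE vs SA this held for 4 higher and 4 lower members (28.3% of all genes, 14.2% higher and 14.1% lower). An unadjusted p under 0.05 was found for 9 members in SE vs WT, 4 in SA vs WT and 8 in SE vs SA, against 18.3%, 13.7% and 22.7% of all genes.

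**Figure D2:**
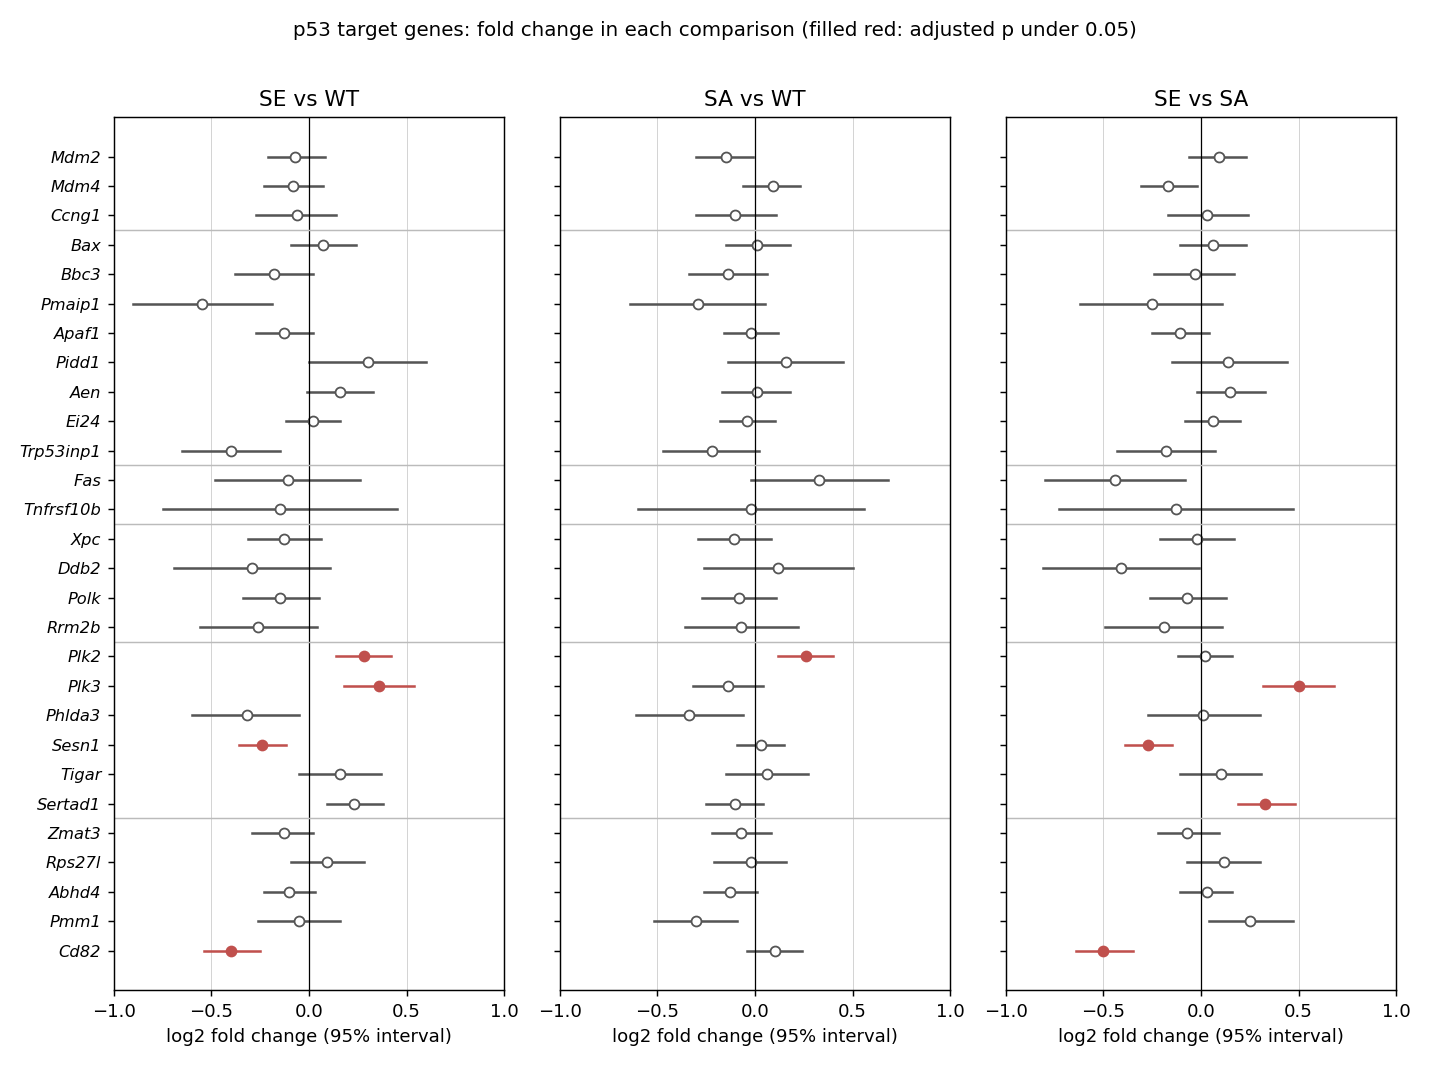
Log2 fold change of each of the 28 tested p53 target genes with its 95% interval in SE vs WT, SA vs WT and SE vs SA, ordered by role with grey lines between roles. Filled red points passed the test: 4, 1 and 4 genes. Most other intervals cross 0.

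Of the 3 feedback inhibitors of p53, 0 passed the test in any comparison. Of all genes 5.04% passed in SE vs WT, 4.07% in SA vs WT and 10.2% in SE vs SA. With so few genes, 0 cannot be told from those shares. Mdm2, the ligase that marks p53 for destruction and is itself a p53 target (ENSMUSG00000020184, chromosome 10, 117688875 to 117710758), had 114, 99.9 and 104 CPM in SE1 to SE3, 104, 98.0 and 96.8 in SA1 to SA3 and 116, 102 and 114 in WT1 to WT3. The 3 groups overlapped. Its log2 fold change was -0.07 ± 0.07 in SE vs WT (SE of the fit, edgeR adjusted p = 0.665), and the 95% interval of the fold ran from 0.864 to 1.05. In SA vs WT it was -0.15 ± 0.07 (edgeR adjusted p = 0.309). Without WT2 and SE3 the SA vs WT value was -0.21 and passed (edgeR adjusted p = 0.0243).

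Ccng1, cyclin G1, which recruits a phosphatase to Mdm2 (ENSMUSG00000020326, chromosome 11, 40748552 to 40755311), had 93.1, 102 and 81.9 CPM in SE, 83.1, 102 and 84.6 in SA and 105, 83.9 and 99.5 in WT. The libraries spread more within each genotype than the genotypes' means lay apart, and all groups overlapped. The edgeR adjusted p was 0.795 for SE vs WT, 0.783 for SA vs WT and 0.881 for SE vs SA. Mdm4, a partner of Mdm2 that blocks p53 directly, averaged 95.6 ± 5.32 CPM in SE, 107 ± 5.11 in SA and 101 ± 8.57 in WT (SD, n = 3 each). Of its 50-base windows 7.3% occur in other genes, chiefly its pseudogene Mdm4-ps.

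The 8 tested genes of mitochondrial and nuclear cell death gave 0 that passed in any comparison. The shares of all genes were 5.04% in SE vs WT, 4.07% in SA vs WT and 10.2% in SE vs SA. A list of 8 is too short to tell 0 from these. Bax (ENSMUSG00000003873, chromosome 7, 45461697 to 45466898) had 119, 110 and 132 CPM in SE, 118, 108 and 120 in SA and 104, 126 and 114 in WT. The groups overlapped, and the 95% interval of the fold was 0.937 to 1.18 in SE vs WT, 0.899 to 1.13 in SA vs WT and 0.929 to 1.17 in SE vs SA (edgeR adjusted p = 0.695, 0.98 and 0.714). Bbc3, which encodes the BH3-only protein PUMA, had 18.8, 18.4 and 22 CPM in SE, 19.1, 19.3 and 22.4 in SA and 21.4, 24.3 and 21.5 in WT. Its groups overlapped as well (edgeR adjusted p = 0.345 for SE vs WT and 0.602 for SA vs WT).

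Trp53inp1, a nuclear cofactor of p53 in cell death and autophagy (ENSMUSG00000028211, chromosome 4, 11156431 to 11174379), had 28.4, 32.4 and 22 CPM in SE, 28.4, 34.1 and 31.1 in SA and 39.3, 31.8 and 37.6 in WT. SE3 was the lowest of all 9 libraries, and WT2 lay below SE2, so the groups overlapped. The log2 fold change in SE vs WT was -0.40 ± 0.12 and just missed the threshold (edgeR adjusted p = 0.0615). It passed under DESeq2 (adjusted p = 0.0279) and in 4 of the other alternatives, among them without WT2 (edgeR adjusted p = 0.0182). Pmaip1, the NOXA gene, had 3.28, 4.07 and 3.25 CPM in SE, 4.14, 4.08 and 4.37 in SA and 5.39, 3.87 and 6 in WT. Its log2 fold change in SE vs WT was -0.55 ± 0.17, the largest in size of the 28 in that comparison (edgeR adjusted p = 0.0742), and WT2 again lay apart from the other WT libraries. It passed without WT2, without WT2 and SE3, and with no filter on low counts.

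The remaining genes of cell death had log2 fold changes between -0.13 and 0.30 in SE vs WT. Apaf1, the scaffold of the apoptosome, averaged 54.2 ± 3.86 CPM in SE, 58.4 ± 2.02 in SA and 59.2 ± 2.31 in WT (SD, n = 3 each). Pidd1, which activates caspase 2 in the PIDDosome, averaged 7.53 ± 0.8 CPM in SE, 6.83 ± 1.11 in SA and 6.13 ± 0.58 in WT, the highest of these fold changes in SE vs WT but with overlapping libraries (edgeR adjusted p = 0.267). Aen, a nuclease that degrades DNA in apoptosis, averaged 28.7 ± 1.17 CPM in SE, 25.9 ± 1.06 in SA and 25.8 ± 2.68 in WT, and its SE libraries all lay above its SA libraries (edgeR adjusted p = 0.295). Ei24, a membrane protein of the endoplasmic reticulum, averaged 61.4 ± 4.4 CPM in SE, 58.8 ± 2.45 in SA and 60.5 ± 0.252 in WT.

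**Figure D3:**
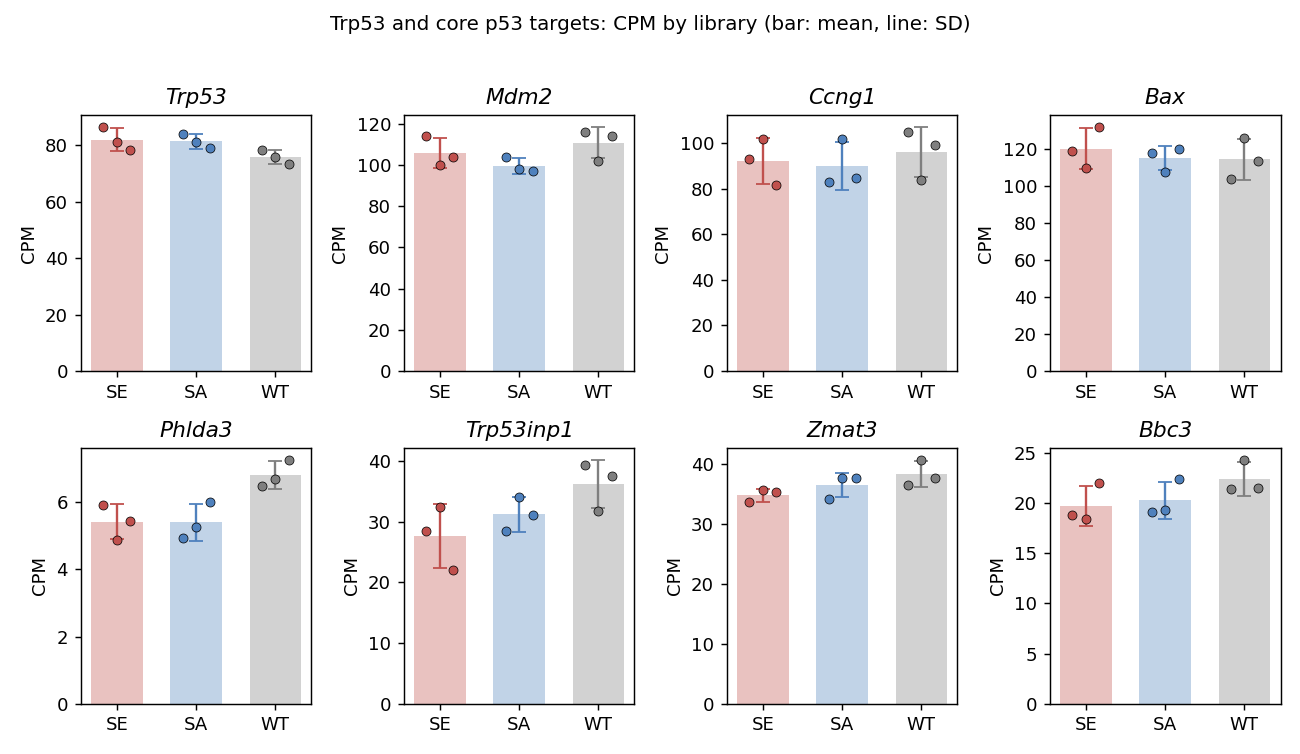
CPM by library for Trp53 and 7 core p53 targets in SE, SA and WT (points: libraries, bars: means, lines: SD, n = 3 each). The libraries of the genotypes overlap for Mdm2, Ccng1, Bax, Trp53inp1 and Bbc3, and the WT libraries lie above all others for Phlda3.

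Death receptors and repair genes gave 0 of 2 and 0 of 4 tested genes past the threshold in any comparison. Over all genes 5.04% passed in SE vs WT, 4.07% in SA vs WT and 10.2% in SE vs SA. Lists this short cannot be told from those shares. Fas, the receptor for Fas ligand, had 3.28, 4.19 and 4.82 CPM in SE, 4.50, 5.71 and 6.48 in SA and 4.19, 4.81 and 4.28 in WT. The log2 fold change was -0.44 ± 0.17 in SE vs SA (edgeR adjusted p = 0.122) and 0.33 ± 0.17 in SA vs WT (edgeR adjusted p = 0.418), with overlapping groups. It passed in SE vs SA without WT2 and SE3. Tnfrsf10b had 17 to 46 counts per library, and the 95% interval of its fold in SE vs WT was 0.594 to 1.36. Among the repair genes, Xpc and Ddb2 recognise damaged bases, Polk copies past them and Rrm2b supplies nucleotides. All 4 had negative log2 fold changes in SE vs WT, from -0.29 to -0.13, none past the test (lowest edgeR adjusted p = 0.351), although Rrm2b passed without WT2. Xpc had 19.3 to 21.3 CPM in SE, 18.6 to 21.6 in SA and 20.7 to 23.8 in WT. Polk had 17.1 to 19.6 CPM in SE, 18.6 to 19.1 in SA and 17.5 to 21.6 in WT, so that the groups overlapped for both genes. Rrm2b had 10.1, 9.78 and 7.96 CPM in SE, 11.1, 10.6 and 10 in SA and 12.8, 8.28 and 11.9 in WT, where WT2 and SE3 were the low libraries. Ddb2 had 3.3 to 3.58 CPM in SE, 3.39 to 5.96 in SA and 3.8 to 4.61 in WT, and its SE libraries lay below its WT libraries. Ddb2 shares 23.8% of its exon bases with Acp2 on the opposite strand, and because the counting strand is not given its reads may include that more abundant gene's.

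The 6 stress kinases and growth brakes gave 3 that passed in SE vs WT, 1 in SA vs WT and 3 in SE vs SA. The shares were 50%, 16.7% and 50%, against 5.04%, 4.07% and 10.2% of all genes. These role lists were drawn up with earlier results of these data known. Plk2, a polo-like kinase of the G1 and S phase stress response (ENSMUSG00000021701, chromosome 13, 110395046 to 110400844), had 224, 222 and 214 CPM in SE, 233, 203 and 214 in SA and 197, 171 and 175 in WT. Every SE and every SA library lay above every WT library, and SE and SA overlapped. SE exceeded WT 1.21-fold (95% interval 1.1 to 1.34, edgeR adjusted p = 0.0205), and SA exceeded WT 1.19-fold (1.08 to 1.32, edgeR adjusted p = 0.0378). Between SE and SA the interval was 0.921 to 1.12 (edgeR adjusted p = 0.891). The call in SE vs WT was lost without SE1, SE2 or WT3 (highest edgeR adjusted p = 0.135). That in SA vs WT was lost without SE1, SE2, SA1, SA3, WT2 or WT3 (highest edgeR adjusted p = 0.249), and the direction held each time.

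Plk3, a related kinase that acts on p53 and in the stress response (ENSMUSG00000028680, chromosome 4, 117128655 to 117133963), had 49.2, 44.7 and 55.6 CPM in SE, 37.9, 32.1 and 35.5 in SA and 37.6, 40.3 and 38.7 in WT. All SE libraries lay above all others, while SA and WT overlapped. SE exceeded WT 1.28-fold (95% interval 1.14 to 1.45, edgeR adjusted p = 0.0167) and SA 1.42-fold (log2 fold change 0.50 ± 0.08, edgeR adjusted p = 0.000902). The difference from WT missed the threshold without SE1, SE3, WT1 or WT3 (edgeR adjusted p of 0.0572 to 0.084). The difference from SA held under all 18 alternatives. In SA vs WT the log2 fold change was -0.14 ± 0.09 (edgeR adjusted p = 0.54).

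Sertad1, a CDK4-binding transcriptional coregulator (ENSMUSG00000008384, chromosome 7, 27486910 to 27490316), had 54.0, 48.2 and 51.0 CPM in SE, 42.5, 39.1 and 39.9 in SA and 42.4, 42.9 and 45.2 in WT. The SE libraries again stood above all others. SE exceeded SA 1.26-fold (95% interval 1.14 to 1.39, edgeR adjusted p = 0.00433), under all 18 alternatives. In SE vs WT the fold was 1.17 (1.06 to 1.3), with an edgeR adjusted p of 0.06, over the threshold. It passed without SE2 (log2 fold change 0.27, edgeR adjusted p = 0.0487).

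Sesn1, sestrin 1, which restrains the growth kinase mTORC1 (ENSMUSG00000038332, chromosome 10, 41809935 to 41908424), had 127, 131 and 137 CPM in SE, 156, 161 and 161 in SA and 150, 160 and 158 in WT. Every SE library lay below every other one. SE lay below WT 1.18-fold (95% interval of the fold 0.779 to 0.919, edgeR adjusted p = 0.0179) and below SA 1.21-fold (0.763 to 0.9, edgeR adjusted p = 0.00469). The call against WT was lost without SE1 or WT3 and when SE and WT were fitted without SA (edgeR adjusted p = 0.0996, 0.099 and 0.0612). Between SA and WT the interval was 0.941 to 1.11 (edgeR adjusted p = 0.898). Its promoter element is the one printed above with 3 mismatches.

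Phlda3, which competes with Akt for membrane lipids (ENSMUSG00000041801, chromosome 1, 135766119 to 135769136), had 5.93, 4.89 and 5.45 CPM in SE, 4.94, 5.25 and 6.01 in SA and 6.47, 6.69 and 7.26 in WT. All WT libraries lay above all mutant ones, but the log2 fold changes of -0.32 ± 0.13 in SE and -0.34 ± 0.13 in SA did not pass (edgeR adjusted p = 0.183 and 0.209). Tigar, a regulator of glycolysis, ranged from 10.3 to 13.2 CPM over the 9 libraries and passed in no comparison.

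**Figure D4:**
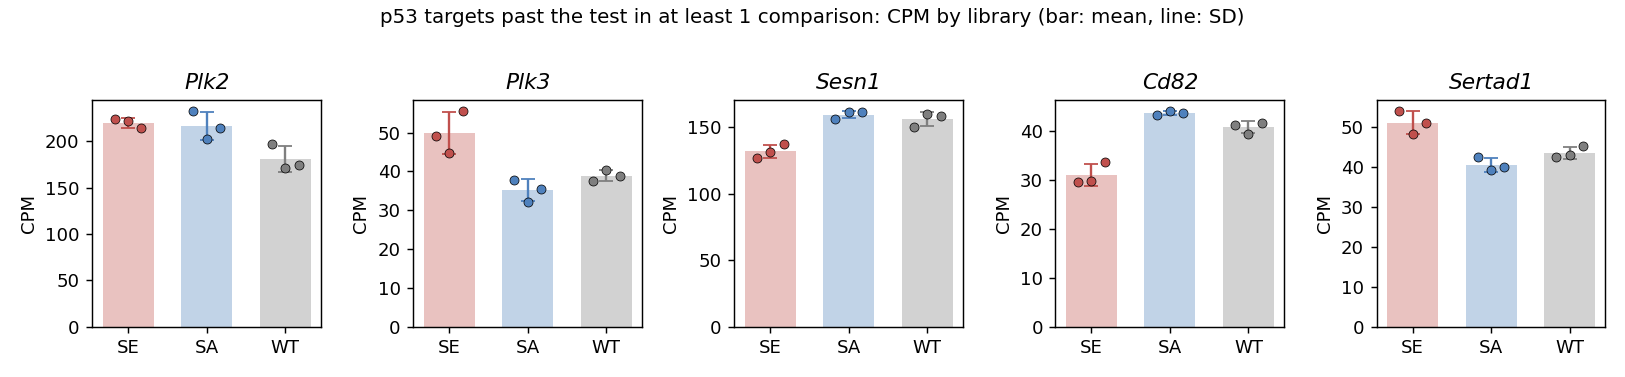
CPM by library for the 5 p53 targets that passed the test in at least 1 comparison (points: libraries, bars: means, lines: SD, n = 3 each). The SE libraries are above all others for Plk3 and Sertad1 and below all others for Sesn1 and Cd82, and for Plk2 both mutants are above WT.

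The upstream 250 bases of Plk2 and Plk3 are shown because these related kinases were both higher in SE than in WT. Capitals mark TGACG or its reverse complement CGTCA, the core of the cAMP response element, which in Plk2 overlap to form TGACGTCA.
Plk2: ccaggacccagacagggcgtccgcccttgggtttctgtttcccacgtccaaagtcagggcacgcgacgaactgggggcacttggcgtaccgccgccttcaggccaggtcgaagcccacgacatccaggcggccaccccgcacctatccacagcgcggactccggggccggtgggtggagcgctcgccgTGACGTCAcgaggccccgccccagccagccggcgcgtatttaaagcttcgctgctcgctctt
Plk3: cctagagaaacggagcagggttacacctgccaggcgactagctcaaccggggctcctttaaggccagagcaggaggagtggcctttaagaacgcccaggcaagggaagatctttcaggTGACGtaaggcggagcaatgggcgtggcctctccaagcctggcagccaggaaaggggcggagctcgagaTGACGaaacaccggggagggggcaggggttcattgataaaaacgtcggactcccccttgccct
The Plk2 stretch is chr13:110394794-110395043 on the plus strand and the Plk3 stretch chr4:117133964-117134213 on the minus strand (RefSeq, GRCm38.p6), both wholly outside annotated exons. TGACGTCA was in the window of 1 of the 23 genes, Plk2, and in 2.03% of all genes. The shorter TGACG on either strand was in 9 of 23 (39.1%) and in 23% of all genes. Neither stretch holds a match to the p53 response element as searched.

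Plk2 and Plk3 are also known as immediate early genes, which answer handling of cells within minutes. The 10 handling stress markers, of which 9 were tested and none was at 0 in every library, summed to 1373 to 1504 CPM in SE, 1262 to 1367 in SA and 1326 to 1386 in WT. In SE vs WT 1 of the 9 passed (11.1%, against 5.04% of all genes). This was Jun, at 204 to 222 CPM in SE and 180 to 186 in WT (1.17-fold higher, edgeR adjusted p = 0.0183). In SE vs SA Jun and Egr1 were higher and Fos lower (33.3%, against 10.2% of all genes). In SA vs WT 0 passed, against 4.07% of all genes. The part of handling in the values of Plk2, Plk3 and Sertad1 was not tested.

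Among the 5 tested targets with other roles, 1 passed in SE vs WT and in SE vs SA, and 0 in SA vs WT. That is 20%, against 5.04% and 10.2% of all genes. Cd82, a tetraspanin of the cell surface known as a metastasis suppressor (ENSMUSG00000027215, chromosome 2, 93419111 to 93463140), had 29.6, 29.8 and 33.6 CPM in SE, 43.3, 44.1 and 43.7 in SA and 41.1, 39.4 and 41.7 in WT. Every SE library lay below every WT library, and every SA library above. SE lay below WT 1.32-fold (95% interval of the fold 0.686 to 0.843, edgeR adjusted p = 0.00274) and below SA 1.41-fold (0.64 to 0.786, edgeR adjusted p = 0.000184). Both calls held under all 18 alternatives, with log2 fold changes of -0.48 to -0.36 against WT and -0.56 to -0.46 against SA. Between SA and WT the log2 fold change was 0.10 ± 0.07 (edgeR adjusted p = 0.62).

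Zmat3, an RNA-binding splicing regulator and p53 effector (ENSMUSG00000027663, chromosome 3, 32334792 to 32366014), had 33.6, 35.6 and 35.3 CPM in SE, 34.2, 37.7 and 37.7 in SA and 36.5, 40.7 and 37.7 in WT. The SE libraries were all below the WT libraries and the SA libraries overlapped with both, with edgeR adjusted p = 0.348 for SE vs WT and 0.799 for SA vs WT. Rps27l, printed above with the closest match to the p53 element together with Ccng1, had 65.5, 68.9 and 56.0 CPM in SE, 55.9, 62.6 and 56.9 in SA and 64.3, 52.2 and 61.2 in WT. Of its 50-base windows 11.2% occur in other genes, so its counts are less certain than most. It passed in no comparison with all libraries, and in SE vs SA without WT2 and SE3. Pmm1, a phosphomannomutase, had 12.1 to 14.1 CPM in SA and 14.8 to 17.6 in WT, without overlap, and a log2 fold change of -0.30 ± 0.10 (edgeR adjusted p = 0.135). Abhd4, a lipase, ranged from 82.0 to 97.2 CPM over the 9 libraries and passed in no comparison.

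For members that did not pass, the intervals show how closely these libraries fix each fold. They were computed gene by gene, and whether they cover variation between animals is not known. In SE vs WT the 95% intervals of the 24 uncalled genes spanned folds of 0.535 to 1.51, and 18 of them lay wholly within 1.5-fold of no change in either direction. In SA vs WT the 27 uncalled genes spanned 0.643 to 1.60, with 23 within 1.5-fold. In SE vs SA the 24 uncalled genes spanned 0.57 to 1.38, with 20 within 1.5-fold. All lay within 2-fold. The widest belonged to the genes of lowest count.

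Within a genotype the members did not move as 1 block. WT2 was the lowest WT library for 13 of the 28 members (46.4%, against 40.2% of all genes) and the highest for 10. SE3 was the lowest SE library for 9 and the highest for 11. In the plot of within-genotype spread, Ccng1, Trp53inp1, Rrm2b and Rps27l were low in both WT2 and SE3, and Bax, Bbc3 and Pmm1 were high in both. The members' median difference from the other libraries of the same genotype was small in every library, between -0.059 in SE2 and 0.025 in SA3 on the log2 scale.

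**Figure D5:**
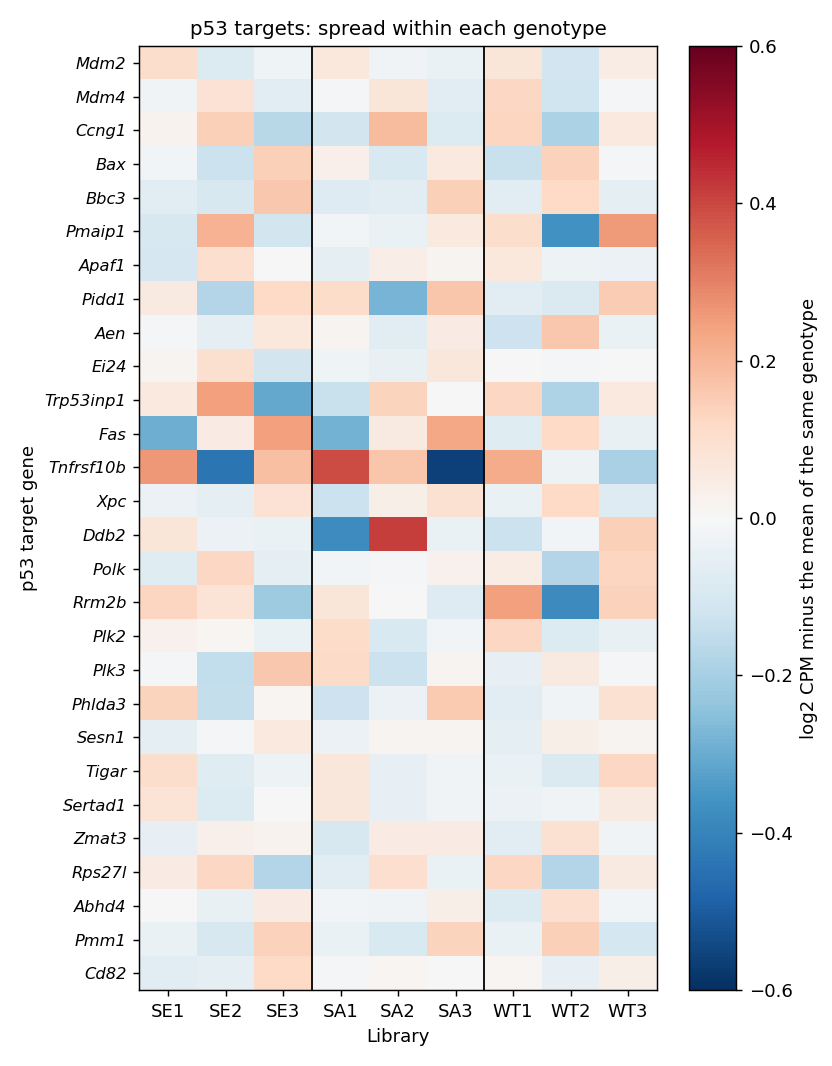
Log2 CPM of each of the 28 tested p53 targets minus the mean of its genotype, by library (red: above the mean, blue: below). Ccng1, Trp53inp1, Rrm2b and Rps27l are blue and Bax, Bbc3 and Pmm1 red in both WT2 and SE3. The strongest colours belong to the low-count genes Tnfrsf10b and Ddb2.

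p53 itself and its regulators did not pass the test in any comparison. Among all genes 5.04% passed in SE vs WT, 4.07% in SA vs WT and 10.2% in SE vs SA. Trp53, the p53 gene (ENSMUSG00000059552, chromosome 11, 69580359 to 69591873), had 86.4, 81.2 and 78.5 CPM in SE, 84.1, 81.3 and 78.9 in SA and 78.3, 75.8 and 73.3 in WT. The WT libraries lay below all mutant libraries by a small margin, with 95% intervals of the fold of 0.989 to 1.18 in SE vs WT and 0.982 to 1.18 in SA vs WT (edgeR adjusted p = 0.349 and 0.53). The mRNA does not measure the p53 protein, whose level is known to be set mainly by its breakdown. Of the 26 genes in the list of p53 and its regulators, which holds the damage kinases Atm, Atr, Chek1 and Chek2 and the acetylases Ep300 and Crebbp, 22 were tested. An unadjusted p under 0.05 was found for 2, 1 and 1 of them in SE vs WT, SA vs WT and SE vs SA. The shares of all genes were 18.3%, 13.7% and 22.7%. Chek1, at 17 to 37 counts per library, had a log2 fold change of 0.70 ± 0.25 in SE vs WT (edgeR adjusted p = 0.134). The Cdkn2a gene, whose Arf product blocks Mdm2, had 0 to 4 counts, and the p53 relatives Trp63 and Trp73 had 0 or 1.

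A second list of 40 other p53 targets, 34 of them tested, gave 3 genes lower and 0 higher in SE vs WT (8.82%, against 5.04% of all genes, 2.69% lower and 2.35% higher). Btg2, an antiproliferative cofactor of mRNA decay, had 35.8, 35.9 and 33.8 CPM in SE, 53, 45.0 and 46.5 in SA and 47.8, 42.1 and 45.7 in WT. SE lay below WT 1.29-fold (edgeR adjusted p = 0.00936) and below SA 1.37-fold (edgeR adjusted p = 0.000973), with no overlap. The call against WT was lost without WT3 (edgeR adjusted p = 0.061) or without WT1 and SE2 (0.0706). Ndrg1, a stress-responsive differentiation gene, fell 1.39-fold (edgeR adjusted p = 0.00458). Thbs1, thrombospondin 1, fell 1.62-fold (edgeR adjusted p = 0.0012).

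In SA vs WT 2 of the 34 were higher and 2 lower (11.8%, against 4.07% of all genes). Thbs1 had 6.81, 6.75 and 7.91 CPM in SE, 18.4, 22.2 and 21.0 in SA and 10.7, 12.2 and 12.1 in WT, in 3 separate ranges, and was 1.76-fold higher in SA than in WT (edgeR adjusted p = 6.36e-05). Psrc1, a mitotic spindle protein, was 1.55-fold lower in SA than in WT (edgeR adjusted p = 0.0153) and Cyfip2, an actin regulator, 1.21-fold lower (edgeR adjusted p = 0.045). The Psrc1 call was lost without SA2, SA3 or WT1 (highest edgeR adjusted p = 0.092), or without WT1 and SE2 (0.0583). That of Cyfip2 was lost under 10 alternatives (highest edgeR adjusted p = 0.233).

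Between the mutants 3 of the 34 were higher and 5 lower in SE than in SA (23.5%, against 10.2% of all genes). Thbs1 was 2.86-fold lower in SE (edgeR adjusted p = 1.05e-07). Ak1, adenylate kinase 1, was 1.85-fold higher (edgeR adjusted p = 0.0274), with 2.55, 2.15 and 2.88 CPM in SE and 1.81, 1.32 and 0.925 in SA. Psrc1 was 1.46-fold higher (edgeR adjusted p = 0.0226) and Ptprv, a receptor-type phosphatase, 1.48-fold lower (0.0278). Of these, Ak1 and Psrc1 each lost the call without 1 or more SE or SA libraries (highest edgeR adjusted p = 0.123 and 0.124), as did Ptprv (0.107), which also missed it under DESeq2 with all libraries (adjusted p = 0.0706).

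Other marker sets also differed between the genotypes. The 10 markers of mesothelial cells and fibroblasts, 3 of them tested, summed to 5.99 to 9.95 CPM in SE, 34.2 to 38.6 in SA and 2.56 to 3.96 in WT, with Msln, Wt1 and Krt19 at 0 in every library, and all 3 tested markers were higher in SA than in WT. Those 3 were the collagen genes Col1a1, Col1a2 and Col3a1, and which cells made them was not tested. Of all genes 1.97% passed as higher in SA vs WT. Dcn and Pdgfra had at most 10 and 6 counts per library. Col1a1 also passed as higher in SE vs WT (3.02-fold, edgeR adjusted p = 5.67e-05), and all 3 were lower in SE than in SA. Fibroblasts express Thbs1, and the part of such cells in its SA values was not tested. The 10 G2/M markers summed to 134 to 147 CPM in SE, 91.5 to 115 in SA and 133 to 158 in WT. Of these markers 5 passed as lower in SA vs WT (50%, against 2.1% of all genes). In SE vs SA 4 passed as higher (40%, against 4.77%), and in SE vs WT 0 passed (5.04% of all genes). Their part in the Psrc1 values was likewise not tested. Stat6 itself averaged 296 ± 14.6 CPM in SE, 198 ± 2.92 in SA and 195 ± 7.53 in WT (SD, n = 3 each), so every difference between SE and the other genotypes stands beside a higher Stat6 level.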

How the data were processed

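The authors deposited raw read counts per Ensembl gene ID for the 9 libraries. Per the submitters' processing notes HISAT2 2.1.0, featureCounts and the build mm10 were used. The annotation release, strand setting and treatment of multi-mapped reads were not given in the sources used here. Symbols, positions and exon lengths came from GENCODE M21 (55141 of 55401 IDs matched, 260 did not), and promoters from RefSeq on GRCm38.p6.

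From the deposited counts, filterByExpr (by genotype, with a minimum count of 10 and total of 15) chose the genes, which were scaled by TMM and fitted in R 4.3.3 with edgeR 4.0.16 (robust quasi-likelihood, genotype as the only factor, all 9 libraries, 6 residual degrees of freedom). Tests were 2-sided with Benjamini-Hochberg adjustment over 13501 genes. Intervals are those of the fit, and the limit of 3 counts covers counting error only. The fit was tested on simulated data.

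The members and lists were chosen with earlier results of these data known. Full values go to members called in any comparison and to Mdm2, Ccng1, Bax, Phlda3, Trp53inp1, Zmat3 and Trp53. Pathway lists name at most 6 called genes per comparison. One called gene of the second list is counted there but not reported here by name. Other members and Chek1 were picked for fuller values once those were known. Alternatives covered scaling, DESeq2 1.42.0, filters, fewer genotypes, a replicate block and libraries left out. No 2 libraries of a genotype agreed within sampling noise (chi-square per gene 3.6 to 16).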

Additional observations from a re-analysis of the deposited data

How the results depend on the processing

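Cd82 kept its calls in SE vs WT and SE vs SA under all 18 alternatives, as did Plk3, Sertad1 and Sesn1 in SE vs SA. With 1 library left out, or the pair WT2 and SE3 or the pair WT1 and SE2, the members called numbered 1 to 7 in SE vs WT, 0 to 3 in SA vs WT and 4 to 6 in SE vs SA, where 4, 1 and 4 were called with all libraries. Over all genes the counts were 292 to 1215, 297 to 903 and 781 to 1903, where 680, 549 and 1376 were called with all libraries. The members' median log2 fold change was -0.12 to -0.087, -0.071 to -0.032 and -0.04 to 0.015.

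Without WT2 and SE3, 3 members (Plk2, Mdm2 and Trp53inp1) were called in SA vs WT among 903 genes, 1215 genes were called in SE vs WT, and the members' median in SE vs SA was -0.028. Without WT1 and SE2, 372 genes were called in SE vs WT, and with only SE and WT fitted, 438. With a mean of at least 5 CPM the median in SE vs WT was -0.08. With library totals only it was -0.027 in SA vs WT and -0.049 in SE vs SA. The called genes were then 304 higher and 229 lower in SA vs WT (266 and 283 with TMM) and 473 higher and 925 lower in SE vs SA (644 and 732). The cause of these changes was not tested.

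Log2 fold changes near 0 that passed in no setting changed sign. With libraries left out as above, SE vs WT gave -0.12 to 0.0037 for Mdm2, -0.15 to 0.02 for Ccng1 and -0.0018 to 0.14 for Bax, and SA vs WT -0.05 to 0.09 for Bax. SE vs SA gave -0.03 to 0.07 for Plk2, -0.04 to 0.13 for Ccng1, -0.02 to 0.12 for Bax, -0.06 to 0.09 for Phlda3 and -0.03 to 0.04 for Trp53. With library totals SE vs SA gave -0.02 for Plk2, -0.01 for Ccng1, -0.03 for Phlda3 and -0.03 for Trp53.

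Libraries with the same replicate number showed no strong shared deviation (correlations of -0.195 to 0.105), so the main fit did not pair them. With 3 libraries per genotype a weak shared effect could go unseen. With the replicate block 568, 500 and 1189 genes were called in SE vs WT, SA vs WT and SE vs SA, and 4, 1 and 4 members. Genes under 5 CPM had the widest intervals, and Perp and Eda2r had too few counts to test. Trp53i11 was listed at 0 throughout, and whether its exons were in the annotation used for counting is not known. Reads of Ddb2 and Acp2, or of other genes that overlap on opposite strands, could not be separated without the strand setting. The windows of Rps27l and Mdm4 recur in other genes, so their counts depend on the treatment of multi-mapped reads, which is not given.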
